A study of Drosophila melanogaster with 2 samples.

Results

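Oxidative phosphorylation genes encode the enzyme complexes of the inner mitochondrial membrane that carry electrons to oxygen and make ATP. The members are the protein-coding genes of the Drosophila melanogaster annotation BDGP6.54 (dm6 coordinates) whose names start with ND- (complex I), Sdh and a letter from A to D (complex II), UQCR- (complex III), COX and a digit (complex IV) or ATPsyn (complex V). This rule found 87 of the 13968 protein-coding genes of the chromosome arms, 40 of complex I, 7 of complex II, 9 of complex III, 16 of complex IV and 15 of complex V. A name made of another subunit name followed by L, with or without a digit, marked 24 of them as duplicate genes, which left 63 other members. The other subunit was a member, or COX6A, COX6C or ATPsynepsilon, whose genes carry other names in the annotation. ND-MNLL ends in L but extends no other subunit name and was not counted as a duplicate. No measured value entered this rule, although it was set with earlier results of these data known.

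The occupancy of the protein CG10631 was mapped by chromatin immunoprecipitation and sequencing (ChIP-seq) in a single group of whole animals at the white prepupa stage, the start of metamorphosis. Both replicates came from a single transgenic line that stably carried CG10631 with green fluorescent protein at its C terminus, and an antibody against that tag was used for the precipitation. Sex was not recorded and the age is given as unknown. The 2 biological replicates are numbered 2 and 3, with no second condition, so no differential test was made. Because whole animals were used, a weak signal in all cells and a strong signal in a few cells cannot be told apart.

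Complexes I, III and IV pass electrons along the respiratory chain while pumping protons across the membrane, complex II feeds electrons in from succinate and is also an enzyme of the Krebs cycle, and complex V, the ATP synthase, lets protons flow back to make ATP. Most subunits are encoded in the nucleus and have to be made in balance with those encoded in the mitochondrial genome. In Drosophila many of the duplicate genes are known to be expressed mainly in the testis.

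The deposited lists give each region a summit and a signal in the peak caller's own units, which is the authors' value per region and was used to describe and rank regions within a list. Each replicate list and the merged list of both replicates held 30000 regions, and 8399 regions passed the authors' comparison of the replicates by the irreproducible discovery rate (IDR). Signals in the IDR list began at 100.1, with a median of 190.1. A gene is called bound here when the summit of an IDR region lay within 500 bp of any of its annotated start sites. For a gene with several such summits the strongest is given. Read depth is unknown, and the precision of a signal rests on the 2 replicates.

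The sequences around 5 summits are shown because they hold the strongest promoter summit that complexes I, II and V have in the IDR list and, for ND-23 and ND-42, 2 arrangements of motifs described further on. ND-23 and ND-42 were chosen after their values were seen. Complexes III and IV have no window here because their strongest IDR promoter summit lay in an annotated exon. Each window reaches at most 100 bp to either side of the summit, stops at annotated exons and is written 5′ to 3′ on the plus strand of the RefSeq dm6 sequence. The windows span chrX:6679243-6679443 (ND-ASHI and Fum1), chr3R:22027481-22027609 (ND-42 and Cchl), chr3R:15837174-15837374 (ND-23 and spn-E), chr3R:11210050-11210246 (SdhC and Tctp) and chr3R:23356150-23356277 (ATPsynCF6 and Sec13). Capitals mark matches on either strand to the motifs searched, among them TATAAA and AATATA in several windows, CAGTGC at ND-ASHI, the DREF element TATCGATA at ND-23 and SdhC, and TTATATAA, a word of the nuclear respiratory gene element, at ND-42.
ND-ASHI: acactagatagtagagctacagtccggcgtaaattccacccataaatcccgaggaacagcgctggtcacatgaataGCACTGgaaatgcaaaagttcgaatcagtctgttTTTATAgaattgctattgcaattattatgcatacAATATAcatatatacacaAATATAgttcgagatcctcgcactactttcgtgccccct
ND-42: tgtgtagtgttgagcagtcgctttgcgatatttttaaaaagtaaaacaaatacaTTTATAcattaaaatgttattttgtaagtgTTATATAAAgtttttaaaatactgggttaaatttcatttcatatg
ND-23: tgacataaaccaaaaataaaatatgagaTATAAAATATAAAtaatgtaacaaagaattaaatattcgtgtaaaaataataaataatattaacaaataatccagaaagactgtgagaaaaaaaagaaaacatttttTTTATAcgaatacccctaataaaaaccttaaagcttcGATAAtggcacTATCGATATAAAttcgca
SdhC: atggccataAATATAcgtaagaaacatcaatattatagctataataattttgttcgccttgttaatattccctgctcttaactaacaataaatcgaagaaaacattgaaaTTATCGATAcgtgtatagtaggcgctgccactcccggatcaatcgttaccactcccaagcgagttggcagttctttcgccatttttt
ATPsynCF6: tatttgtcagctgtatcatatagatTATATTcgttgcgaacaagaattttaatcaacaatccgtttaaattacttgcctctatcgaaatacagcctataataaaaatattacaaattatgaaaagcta

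CG10631 summits lay at the promoters of a minority of the members in every complex. In the IDR list 16 of 87 members were bound, or 18.4% (95% Wilson interval 11.6 to 27.8%, counting error only), beside 2712 of 13968 protein-coding genes, or 19.4%. The share of all members therefore stood near the background. Without genes whose summit also lay at another start site, 3 of 87 members (3.45%) and 8.60% of all protein-coding genes were bound. These shares still divide by all genes, and head-to-head neighbours, defined further on, flanked 50.6% of the members and 36.2% of all genes. No interval was computed for this setting, and the lower share of the members was not tested. Complex I had 9 of 40 bound (22.5%), complex II 1 of 7 (14.3%), complex III 1 of 9 (11.1%), complex IV 3 of 16 (18.8%) and complex V 2 of 15 (13.3%). The Wilson intervals of the complexes overlapped, from 12.3 to 37.5% for complex I, 2.57 to 51.3% for complex II, 1.99 to 43.5% for complex III, 6.59 to 43.0% for complex IV and 3.74 to 37.9% for complex V. The difference between complexes was not tested, and each interval includes the background share.

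**Figure D1:**
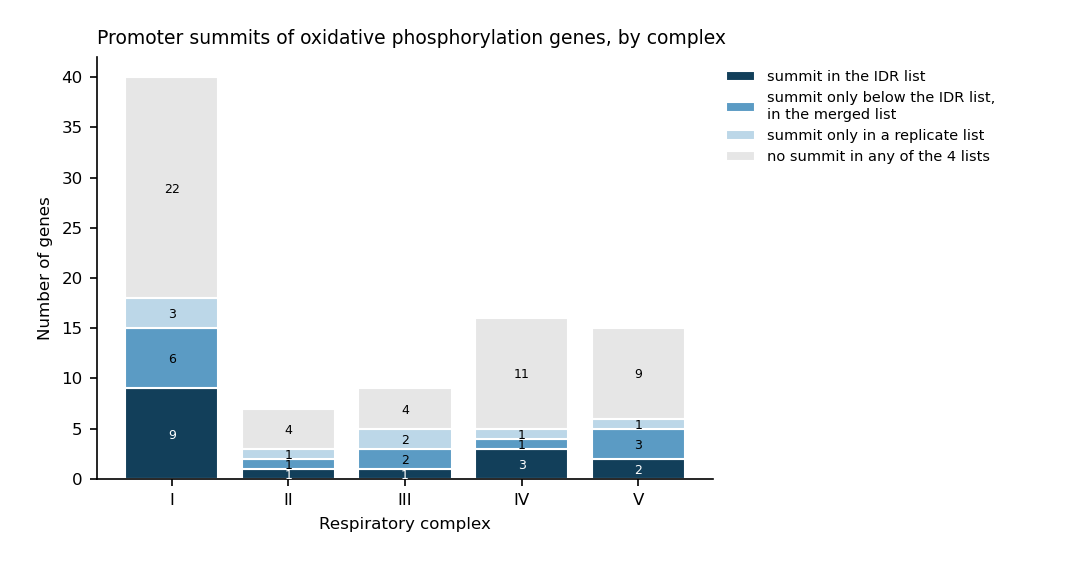
Number of members (vertical axis) of complexes I to V (horizontal axis), stacked by the lists that hold a summit within 500 bp of a start site. Complex I has 9 members in the IDR list and 22 with no summit in any list, and the other complexes have 1 to 3 members in the IDR list.

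The wider lists gave a like picture. The merged list held a promoter summit for 29 members (33.3%), beside 34.3% of all protein-coding genes. The replicate 2 list held one for 35 members (40.2%), beside 35.0% of all genes, and the replicate 3 list for 31 (35.6%), beside 35.2%. Of the 71 members that were not bound, 13 had a summit in the merged list below the IDR list, 8 had one only in a replicate list and 50 had none in any of the 4 lists. Over all 13968 protein-coding genes, 2712 were bound and 2080 had a summit in the merged list below the IDR list. The counts over all genes for the last 2 classes are not given here. The nearest IDR summit was a median of 5301 bp from a start site of a member and 6193 bp over all protein-coding genes.

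Duplicate genes made up few of the bound members. Among the duplicates 1 of 24 was bound (4.17%, 95% interval 0.739 to 20.2%), and among the other members 15 of 63 (23.8%, 15 to 35.6%), and both intervals include the 19.4% of all protein-coding genes. The merged list held summits for 3 of 24 duplicates and 26 of 63 others, the replicate 2 list for 4 and 31, and the replicate 3 list for 2 and 29. The shares over all genes in these lists were 34.3%, 35.0% and 35.2%. The median distance to the nearest IDR summit was 17510 bp for the duplicates and 3699 bp for the others. These counts were not tested against each other. Without duplicates the bound counts were 9 of 34 in complex I, 1 of 4 in complex II, 1 of 6 in complex III, 2 of 8 in complex IV and 2 of 11 in complex V.

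Among the members, the strongest promoter summits lay at complex I genes. This order depends on the name rule, since blw, a complex V gene outside it, had 641 in the merged list, beside 644 for ND-MWFE. Complex I is the NADH dehydrogenase, built from core subunits that hold the cofactors and the electron path and from accessory subunits around them. Of its 7 core subunits encoded by members, 3 were bound (ND-24, ND-51 and ND-23), and 2 more had a weaker summit in the merged list (ND-20 and ND-49). ND-75 and ND-30 had no summit in any list. Of 10 accessory subunits of the membrane arm that belong to the NDUFB family of mammals, 4 were bound (ND-ASHI, ND-SGDH, ND-MNLL and ND-B22), and the remaining bound members of the complex were ND-42 and ND-MWFE, also accessory subunits. The core share, 42.9%, had a 95% interval from 15.8 to 75%, and the NDUFB share, 40.0%, one from 16.8 to 68.7%, and both include the 19.4% of all protein-coding genes. A head-to-head neighbour, defined further on, flanked 6 of the 7 core genes, and 32.0% of all genes with one were bound.

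The promoter of ND-ASHI held the strongest summit of any member (X, 6679216 to 6679502). Its signal was 426 in replicate 2 and 522 in replicate 3 (474 ± 68.4, mean ± SD, n = 2), and 953 in the merged list, where it ranked 240 of 30000. The replicate ranks were 308 and 201, so the summit was among the strong ones in both. It lay 225 bp upstream of ND-ASHI and 297 bp upstream of Fum1, a fumarase gene of the Krebs cycle on the opposite strand, in an intron of a Fum1 transcript. ND-MWFE (2R, 13158373 to 13158574) followed with 368 in replicate 2 and 280 in replicate 3 (324 ± 62.7, n = 2) and 644 in the merged list. Its summit lay 152 bp upstream of ND-MWFE and 69 bp upstream of the nearest start of TppII, a peptidase gene, inside an intron of TppII. The 2 replicates put ND-ASHI and ND-MWFE in the same order, although each gene was higher in a different replicate.

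ND-42 (3R, 22027289 to 22027728) had a signal of 263 in replicate 2 and 234 in replicate 3 (249 ± 20.7, n = 2) and 493 in the merged list. The summit lay 29 bp upstream of Cchl, the gene for the lyase that attaches haem to cytochrome c, and 200 bp upstream of ND-42. ND-24 (X, 17631949 to 17632388), a core subunit, had 232 and 214 (223 ± 12.3, n = 2) and 453 in the merged list. Its summit lay 80 bp downstream of the start of ND-24, in an exon, and 122 bp upstream of corolla, a gene of the meiotic synaptonemal complex. Both replicate values of ND-42 were above both of ND-24, by a small margin.

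The other 5 bound members of complex I were weaker. ND-SGDH had 201 in replicate 2 and 189 in replicate 3, with a summit 42 bp upstream of its start and 242 bp upstream of RhoGAP68F. ND-MNLL had 146 and 152, 54 bp upstream of its own start and 179 bp upstream of p115, a Golgi tethering protein gene, and CG45089 lies at the same distance as ND-MNLL on the same strand. The core subunit gene ND-51, whose protein binds NADH, had 161 and 109, with a summit 87 bp upstream and 145 bp upstream of CG13994. ND-23, an iron-sulphur core subunit gene, had 130 and 127, with a summit 157 bp upstream and 145 bp upstream of spn-E, a helicase gene of the piRNA pathway. ND-B22 had 56.1 and 60.0 and a summit 3 bp from its start with no other gene's start within 500 bp. Only ND-51 among these 5 differed by over 1.5-fold between the replicates once the median ratio of all bound genes (0.981) had been removed.

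Weaker summits, in the merged list but below the IDR list, lay at 6 of the 40 members of complex I, the largest complex. The counts were 1 of 7 in complex II, 2 of 9 in complex III, 1 of 16 in complex IV and 3 of 15 in complex V. Over all protein-coding genes, 2080 of 13968 had such a weaker summit, and the differences were not tested. ND-20, an iron-sulphur core subunit gene on X, had 54.8 in replicate 2 and 35.9 in replicate 3 (45.4 ± 13.4, n = 2) and 90.6 in the merged list, 144 bp upstream of its start. ND-AGGG had 39.8 and 18.1 and a merged signal of 58.2, and ND-49, a core subunit gene on chromosome 4, had 38.4 and 40.3 and a merged signal of 58.1. Among the members with no summit in any list were ND-13A, ND-13B, ND-18 and ND-19.

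**Figure D2:**
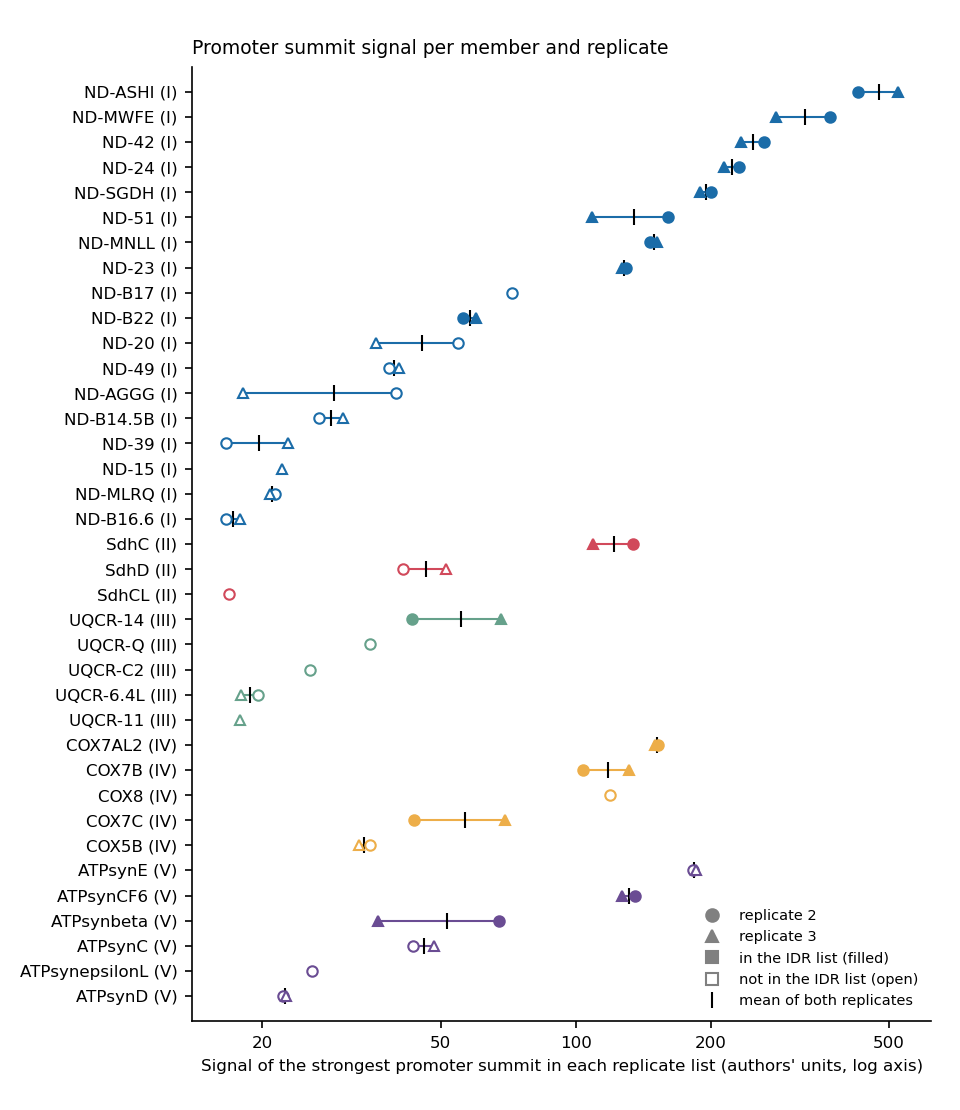
Signal of the strongest promoter summit (authors' units, log axis) in replicate 2 (circles) and replicate 3 (triangles) for the 37 members with a summit in at least 1 replicate list, grouped by complex. Filled symbols are members in the IDR list, open symbols are not, and vertical ticks mark the mean of both replicates; ND-ASHI and ND-MWFE lead, and ATPsynE stands among the stronger members with open symbols.

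Complex II, succinate dehydrogenase, had 1 bound gene. SdhC, which encodes a membrane anchor (3R, 11209930 to 11210369), had 134 in replicate 2 and 109 in replicate 3 (122 ± 17.5, n = 2) and 240 in the merged list. The summit lay 301 bp upstream of SdhC and 97 bp upstream of Tctp, a growth-related gene. SdhD, the other anchor, had a weaker summit at 41.2 and 51.4 and 85.4 in the merged list. SdhA and SdhB, the flavoprotein and the iron-sulphur subunit, had none in any list, nor did the duplicates SdhAL and SdhBL, and SdhCL had one of 16.9 in the replicate 2 list only.

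In complex III, the cytochrome bc complex, UQCR-14 was bound (X, 16286035 to 16286474). It had 43.1 in replicate 2 and 68.2 in replicate 3 (55.6 ± 17.7, n = 2) and 107 in the merged list, just inside the IDR list. The summit lay 33 bp upstream of its start, in an exon of the overlapping gene CG32576. UQCR-Q, with 34.7 in replicate 2, no summit in replicate 3 and 33.9 in the merged list, and the duplicate UQCR-6.4L, with 19.6 and 17.9 and a merged 37.1, were weaker. The gene for the large core protein UQCR-C1 had none in any list, and UQCR-C2 had one of 25.5 in the replicate 2 list only. UQCR-11L, UQCR-14L and UQCR-6.4 had none.

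Complex IV, cytochrome c oxidase, had 3 bound genes of different kinds. The duplicate COX7AL2 (2L, 2197215 to 2197654) had 153 in replicate 2 and 150 in replicate 3 (152 ± 1.91, n = 2) and 311 in the merged list. Its summit lay 477 bp downstream of the nearest start site, in an exon of the gene itself, and a further IDR summit also lay within 500 bp of a start. COX7B (3L, 17425180 to 17425619) had 104 and 132 (118 ± 19.6, n = 2) and 235 in the merged list, 77 bp upstream of its start and 183 bp upstream of Sec3, an exocyst subunit gene. COX7C (2R, 10048495 to 10048934) had 43.7 and 69.4 (56.6 ± 18.2, n = 2) and 117 in the merged list. That summit lay 362 bp downstream of the nearest COX7C start, in an intron, and 96 bp upstream of oys, an acyltransferase gene. COX7AL2 and COX7C left the bound set when the promoter was narrowed to 250 bp.

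COX5B had a weaker summit, with 34.8 and 32.8 and 68.5 in the merged list. COX8 had a summit of 119 in the replicate 2 list, rank 3155, 111 bp upstream of its start, while the replicate 3 list and the merged list held no summit there. COX4, COX5A and the duplicates COX4L and COX5BL had none in any list.

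In complex V, the peripheral stalk subunit gene ATPsynCF6 was bound (3R, 23356030 to 23356469). It had 135 in replicate 2 and 127 in replicate 3 (131 ± 5.81, n = 2) and 258 in the merged list. The summit lay 186 bp upstream of ATPsynCF6 and 28 bp upstream of Sec13, a coat protein gene of the secretory pathway. ATPsynbeta, the catalytic subunit gene on chromosome 4 (1030810 to 1031249), had 67.4 and 36.2 (51.8 ± 22.1, n = 2) and 102 in the merged list. Its summit lay 454 bp upstream, and 55 bp upstream of the nearest start of CG11076, inside an intron of CG11076. By position in the enzyme, 1 of 3 genes of the head and central stalk, 1 of 4 of the peripheral stalk and 0 of 4 of the membrane part were bound. Their 95% intervals (6.15 to 79.2%, 4.56 to 69.9% and 0 to 49.0%) all include the 19.4% of all genes. These counts leave out subunit genes under other names, such as blw, the alpha subunit gene, which was bound (331 in replicate 2, 309 in replicate 3).

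ATPsynE, a gene of the membrane part, was strong in both replicates and yet not in the IDR list. Its summit, 4 bp upstream of a start site on 3R, had 182 in replicate 2 (rank 1735) and 186 in replicate 3 (rank 1790; 184 ± 2.37, n = 2), which is above ATPsynCF6 in both. The merged list used here held no region there, and the IDR list neither. An absence from these lists as used here is therefore no measure of a low signal at this gene. The next IDR summit lay 819 bp away. Over all protein-coding genes, 29 had a promoter summit among the 8399 strongest regions of both replicates and none in the merged list, and ATPsynE was the single member among them. For 202 genes only 1 replicate had such a strong summit and the merged list held none, and 2 of these were members (COX8 and ND-B17). The cause was not tested, and rows missing from the lists used here and regions left out in processing cannot be told apart. ATPsynC had a weaker summit at 43.4 and 48.4 and 93.9 in the merged list, followed by ATPsynD at 22.3 and 22.7 and 46.0, and by the duplicate ATPsynepsilonL at 25.8 in replicate 2 and 45.9 in the merged list. ATPsynB, ATPsynCF6L, ATPsynF and ATPsynG had none in any list.

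Of the 87 members, 29 had a promoter summit in both replicate lists, 8 in 1 list only and 50 in neither. Over all protein-coding genes, 4075 of 13968 had one in both replicate lists. All 16 bound members had a promoter summit in both replicate lists, as did 2633 of all 2712 bound genes. The IDR list itself rests on a comparison of these replicates, so such agreement is partly built in. At the members the ratio of replicate 2 to replicate 3 lay between 0.629 (COX7C) and 1.86 (ATPsynbeta), with a median of 1.04. Over the 2633 bound genes it lay between 0.134 and 8.17, with a median of 0.981. After that median was removed, 4 of 16 differed by over 1.5-fold (ATPsynbeta, COX7C, UQCR-14 and ND-51), beside 8.20% of all bound genes. The first 3 of these, with merged signals of 102, 117 and 107, stood near the lower end of the IDR list, at 100.1, and ATPsynC and ND-20, at 93.9 and 90.6, stood just outside it. Among the 8399 strongest regions of replicate 2 alone, UQCR-14 and COX7C had no promoter summit and ATPsynE, COX8, ND-20 and ND-B17 had one, and in replicate 3 alone ATPsynbeta had none and ATPsynE had one. The merged signal was 0.958 to 1.04 times the sum of the replicate signals at the 16 members. The median signal of the strongest promoter summit was 263.7 over the 16 bound members and 268.5 over the 2712 bound genes.

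**Figure D3:**
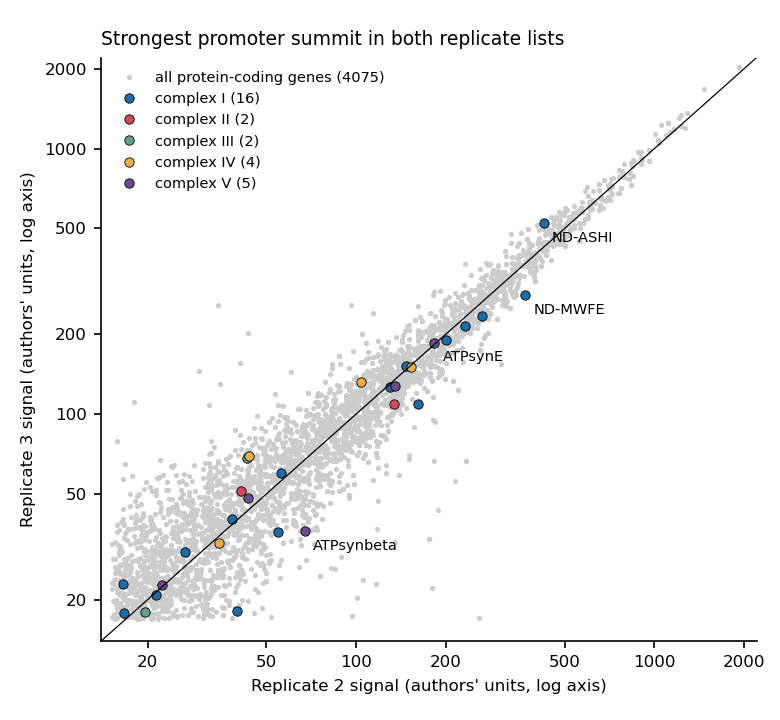
Signal of the strongest promoter summit in replicate 2 (horizontal) and replicate 3 (vertical), in authors' units on log axes, for 4075 protein-coding genes with a summit in both replicate lists (grey) and the 29 members among them (coloured by complex). The line marks equal signals; ND-ASHI and ND-MWFE lie at the upper end of the members, ATPsynE lies near the line, and ATPsynbeta lies below it.

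Most bound members shared their summit with a neighbouring gene. At 13 of the 16 (81.2%) the strongest summit also lay within 500 bp of a start site of another protein-coding gene, beside 1429 of all 2712 bound genes (52.7%). In each of these 13 a gene on the opposite strand was involved. ND-B22, UQCR-14 and COX7AL2 were the members whose summit served no other start site. The summit lay nearer to the member's start at ND-24, ND-51, ND-ASHI, ND-MNLL, ND-SGDH and COX7B, and nearer to the opposite-strand neighbour's start at the other 7, such as ND-42 (200 bp, against 29 bp for Cchl). At such promoters the lists alone cannot assign the summit to 1 of the genes.

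**Figure D4:**
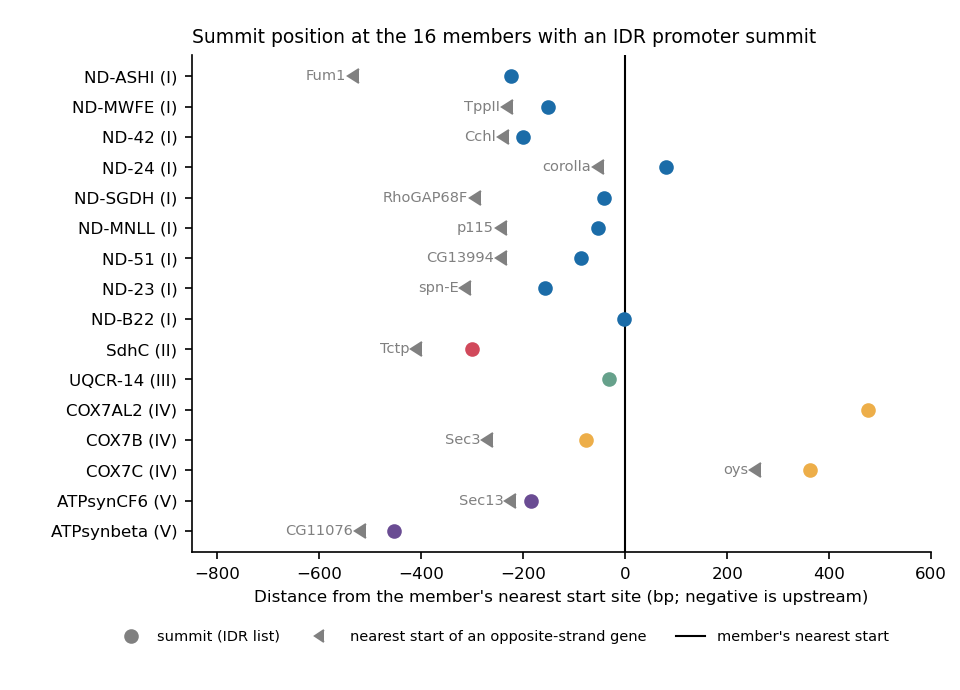
Position of the strongest IDR summit (circles, coloured by complex) relative to the nearest start site of each of the 16 bound members (line at 0), in bp, with arrowheads at the nearest start of a gene on the opposite strand that has the same summit within 500 bp. In 13 rows a neighbour's start is drawn, and 13 of the 16 summits lie upstream of the member's start.

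Summits lay upstream of the nearest start at 13 of the 16 members (81.2%), beside 88.8% of all bound genes. Their median position was -82 bp (quartiles -190 and -25.5 bp), beside -165.5 bp (-258 and -94 bp). The 3 members with a summit downstream were ND-24, COX7C and COX7AL2.

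The arrangement of the promoters accompanied these counts. A head-to-head neighbour was defined as a protein-coding gene on the opposite strand with a start site 0 to 1000 bp upstream. Such neighbours flanked 40 of the 63 members that are not duplicates (63.5%), 4 of the 24 duplicates (16.7%) and 36.2% of all protein-coding genes. Of the 40 members with one, 13 were bound (32.5%), beside 32.0% of all genes with one. Of the 23 without, 2 were bound (8.70%), beside 12.3% of all genes without. Among the duplicates, 0 of 4 with a neighbour and 1 of 20 without were bound. The shares of the members other than duplicates were near those of all genes within each arrangement, those of the duplicates were lower, and no test of the differences was made.

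**Figure D5:**
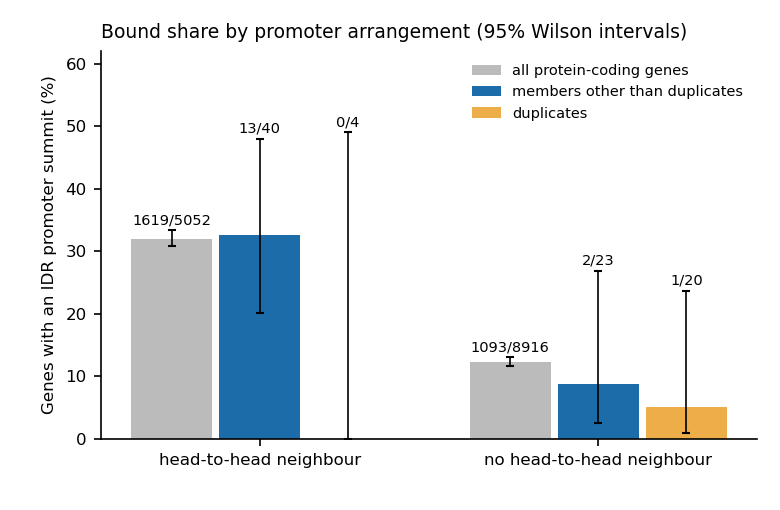
Percent of genes with an IDR promoter summit (vertical axis; bars, with 95% Wilson intervals as lines) for genes with and without a head-to-head neighbour, in all protein-coding genes (grey), members other than duplicates (blue) and duplicates (orange). The numbers above are bound genes over genes, and the blue bars stand near the grey ones, at 32.5% beside 32.0% and 8.70% beside 12.3%.

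Short motifs were counted, in either orientation, in windows reaching 100 bp to each side of the strongest summits of the 16 bound members and of 2371 IDR summits at protein-coding promoters. The DREF element TATCGATA, a site of a factor that drives genes of growth and replication, occurred in 3 of 16 windows (ND-23, SdhC and UQCR-14), beside 5.15% of all. The nuclear respiratory gene element, known from many nuclear genes of insect respiratory chain subunits and searched as TTACATAA, TTACGTAA, TTATATAA and TTATGTAA, occurred in 3 (ND-42, ND-MNLL and ND-SGDH), beside 6.45%. The TATA box TATAAA occurred in 10 of 16 windows, beside 42.3%, and AATATA in 8, beside 44.4%, and these words can overlap. GATAA, the core of a GATA site, which overlaps the DREF element where that is preceded by T, occurred in 8, beside 43.1%. CAGTGC occurred in 2 (ND-ASHI and ND-B22), beside 13.5%, and the Ohler motif 1 core GGTCACACT in 1 (COX7B), beside 1.18%. The E-box CACGTG (2.11% of all) and the Ets core CCGGAA (2.87%) were in none of the 16. Within 50 bp of the summits AATATA (2 windows, 12.5% beside 26.9%), GATAA (3, 18.8% beside 24.7%) and the Ohler core (0, beside 0.380%) were below the share of all summits, and CAGTGC (2, 12.5% beside 5.82%) was above it. With so few windows, 1 member moves a share by 6.25 percentage points, and a match is a description of the letters present.

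The windows of the members were rich in A and T. Their mean GC content was 32.3% ± 5.78 (SD over 16 windows), beside 33.5% ± 6.95 over the 2371. In promoters taken from 250 bp before to 50 bp after the most upstream start, GC content was 35.1% ± 6.46 over the 87 members and 39.1% ± 7.73 over all 13968 genes. The means of the 16 bound members (35.1% ± 6.49) and of the 71 others (35.1%) were equal to 3 digits. In the same promoters the Ohler motif 1 core occurred in 15 of 87 members (17.2%), 2 of 16 bound and 13 of 71 others, beside 6.04% of all genes. The nuclear respiratory gene element occurred in 3 of 16 bound members and 2 of 71 others, beside 5.18% of all genes, and the DREF element in 3 of 16 and 6 of 71, beside 9.36%. The duplicates held neither of these last motifs in any of their 24 promoters.

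Related genes under other names were counted from lists of their own. Among 9 further subunit and electron carrier genes, 5 were bound, led by Cyt-c-d, a cytochrome c gene (464 in replicate 2, 460 in replicate 3), blw, the gene of the ATP synthase alpha subunit (331 and 309), and levy, a complex IV subunit gene (158 and 134). Assembly factors, which help to build the complexes, had 3 of 14 bound: CIA30, a complex I assembly factor gene (791 and 782), Ttc19 (232 and 240) and Cox17, a copper chaperone gene (237 and 221). Enzymes of the Krebs cycle had 5 of 15, with Fum1 sharing the ND-ASHI summit, Idh3g (382 and 391) and mAcon1, an aconitase gene (195 and 171). Regulators of mitochondrial gene expression and DNA maintenance had 2 of 13, mTerf5 (126 and 125) and mtSSB (48.3 and 80.4). The Cyt-c-d summit lay 401 bp downstream of its nearest start, and counts at other promoter widths are not given for these lists. These counts stand beside the 19.4% of all protein-coding genes and were not tested.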

How the data were processed

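The ChIP-seq data, from 2 replicates of white prepupae carrying tagged CG10631, were taken as 4 deposited dm6 peak lists. The signal per region is the value the authors deposited in the peak caller's own units. Per the labels and the accompanying descriptions, replicate and merged lists derive from alignments and a control, and the IDR list from those 3 lists. Which aligner, caller, filters and IDR threshold were used is not given in the sources used here. Control data were not analysed here. The dm3 lists were not used here because no dm3 annotation was at hand.

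Summits (1-based) were assigned to start sites within 500 bp with Python 3.11.15 and pandas 2.3.3, after the overlap code had been tested on simulated data. All dm6 regions lay inside the reference arms. Wilson intervals came from scipy 1.17.1. No significance test was made, since 1 group has no contrast and genes are not replicates. Alternatives were promoter widths of 250 and 1000 bp, the stronger 4199 IDR regions, the 8399 strongest regions of a single replicate, whole-region overlap, the most upstream start, and windows of 50 bp for motifs. The rule for named genes took every bound member, the 3 strongest weaker merged summits and up to 4 unlisted genes per complex, and up to 3 genes per related list. The members and lists were chosen with earlier results of these data known. Of 31 assembly factor names, 17 matched no gene of the annotation, as did 1 of 14 regulator names.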

Additional observations from a re-analysis of the deposited data

How the results depend on the processing

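The count of bound members ranged from 12 (13.8%, at 250 bp and also with the stronger 4199 regions) to 19 (21.8%, at 1000 bp). All protein-coding genes had 14.4%, 13.1% and 23.2% in these settings. With 1 replicate left out the count was 16 to 18 (18.4 to 20.7%), with 19.7 to 20.1% of all genes bound. Whole-region overlap gave 18.4% of members beside 21.1% of all genes, and the most upstream start 18.4% beside 16.8%. Regions strong in both replicates, chosen after seeing the data, gave 16.1% beside 17.5%. The members thus stood on either side of the share of all genes. Leaving out genes whose summit served another start site left 3 bound members (3.45% of 87) beside 8.60% of all genes. That share is lower than that of all genes, but no interval was computed and the difference was not tested. Within 250 bp complex II had 0 bound, complex IV 1 and complex V 1, and within 1000 bp complex II had 2. With the stronger regions complex III had 0 and complex V 1. Complex III had 0 in regions strong in both replicates and 0 to 1 with a replicate left out. UQCR-14 and COX7C were lost without replicate 3 and ATPsynbeta without replicate 2. ATPsynE was bound in either replicate alone. Within 50 bp of summits TATAAA occurred in 6 windows (37.5%, beside 25.6% of all summits), AATATA in 2 (12.5%, beside 26.9%), GATAA in 3 (18.8%, beside 24.7%) and the Ohler motif 1 core in 0 (beside 0.380%). The last 3 motifs thus went from above the share of all summits to below it, and CAGTGC, with 12.5% beside 5.82%, from below to above. Complex IV lost COX7AL2 and COX7C at 250 bp. Complex I rose from 9 to 11 bound without replicate 3, by ND-20 and ND-B17. The other changed counts by complex moved by 1 gene. The causes of the other changes were not tested. Counts in the merged and replicate lists, median signals and median summit positions stayed within their limits under the alternatives run. No paired analysis was possible because there is 1 group.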
